A study of Mus musculus with 24 samples.

Results

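Acute phase secreted proteins are described here through 10 genes, Saa1, Saa2, Saa3 and Saa4 (serum amyloid A), Orm1, Orm2 and Orm3 (alpha-1-acid glycoprotein, or orosomucoid), Hp (haptoglobin), Itih4 (an inter-alpha-trypsin inhibitor heavy chain) and Lcn2 (lipocalin 2). They were chosen by gene symbol, and 9 of the 10 were found among the 19650 genes of the most complete table. Saa3 had no row in the tables and is not analysed here. The study measured liver total RNA of 24 male mice in 6 groups of 4. Wild-type (WT) C57Bl/6N mice aged 19 to 20 weeks received vehicle (distilled water), pravastatin at 10 mg/kg, atorvastatin at 10 mg/kg or pregnenolone 16α-carbonitrile (PCN) at 100 mg/kg. In a separate experiment, 20-week-old male mice lacking the pregnane X receptor (PXRKO) received vehicle or atorvastatin at 10 mg/kg. Dosing was by oral gavage for 4 days and was followed by a 12 h overnight fast, in all groups alike.

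PXR, the nuclear receptor encoded by Nr1i2, is activated by PCN in the mouse, and statins block cholesterol synthesis at HMG-CoA reductase. Acute phase proteins are made chiefly by hepatocytes and released into the blood when inflammatory cytokines reach the liver. Interleukin 6 acts on their genes through STAT3, interleukin 1 through NF-kB, and both together with C/EBP factors and glucocorticoids. Saa1 and Saa2 encode the inducible amyloid A proteins that travel on high density lipoprotein, whereas Saa4 encodes a form that is made constitutively. The products of Orm1 to Orm3 bind lipophilic compounds, haptoglobin captures free haemoglobin, and lipocalin 2 binds bacterial siderophores.

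Only the vehicle and PCN table was near complete, with 6.64 to 24.6 M read counts a library for WT vehicle and 8.16 to 16.3 M for PCN. The other tables hold genes picked by their own result, so a member has a value in a group only if some table of that group listed it. Depth there is known as a size factor, where 1 stands for 12.3 M counts, and ran from 1.03 to 1.43 in WT atorvastatin, 0.771 to 1.28 in PXRKO vehicle and 0.634 to 1.13 in PXRKO atorvastatin. Nr1i2 was read at 1068 to 1665 normalised counts in the 12 WT libraries with values and at 398 to 659 in the 8 PXRKO libraries. Gene-level counts can hold reads from exons outside a deletion, so this checks the genotype in part. Every sample title carries its own animal number, so p-values measure the spread between animals. Because the PXRKO mice were handled as an experiment of their own, a difference of genotype cannot be told apart from one of experiment. Library numbers below are column order within a group and pair nothing.

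The genes lie in 2 clusters and 3 single sites (coordinates of build GRCm38). The Saa genes follow one another on chromosome 7, with Saa4 at chr7:46727998-46732603, Saa1 at chr7:46740497-46742980 and Saa2 at chr7:46751790-46754313. Saa1 and Saa4 are on the minus strand and Saa2 is on the plus strand, so that Saa1 and Saa2 point away from each other across 8809 bases. Orm1 (chr4:63344560-63348163), Orm3 (chr4:63356162-63359511) and Orm2 (chr4:63362449-63365878) stand in a row on the plus strand of chromosome 4. Hp is at chr8:109575128-109579172 on the minus strand, Itih4 at chr14:30886476-30902353 on the plus strand and Lcn2 at chr2:32384633-32388252 on the minus strand.

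Start-site windows are printed for 5 members so that the inducible pair Saa1 and Saa2 can be set beside Orm2 and Itih4, which were also called with atorvastatin in WT, and Saa4, which was not. Windows run from 250 bases before to 50 bases after the start, from RefSeq on GRCm38.p6, and 8 of the 10 members had one (none matched for Orm1 and Hp). They are written 5′ to 3′ on the gene's strand, and capitals mark a match to the C/EBP motif, or, in Itih4, to the STAT motif.
Saa1, chr7:46742931-46743230, minus strand: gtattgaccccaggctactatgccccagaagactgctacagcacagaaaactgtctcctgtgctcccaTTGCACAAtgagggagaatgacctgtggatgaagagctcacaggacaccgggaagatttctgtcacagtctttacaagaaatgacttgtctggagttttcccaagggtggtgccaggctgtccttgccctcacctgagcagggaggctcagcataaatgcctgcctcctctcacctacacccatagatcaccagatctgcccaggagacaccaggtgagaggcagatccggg
Saa2, chr7:46751583-46751882, plus strand: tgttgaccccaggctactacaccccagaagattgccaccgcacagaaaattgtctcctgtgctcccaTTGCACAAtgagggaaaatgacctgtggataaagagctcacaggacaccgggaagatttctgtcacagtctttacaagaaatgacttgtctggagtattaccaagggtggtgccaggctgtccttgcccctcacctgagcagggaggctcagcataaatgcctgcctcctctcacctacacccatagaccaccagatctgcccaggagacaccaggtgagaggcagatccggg
Saa4, chr7:46732554-46732853, minus strand: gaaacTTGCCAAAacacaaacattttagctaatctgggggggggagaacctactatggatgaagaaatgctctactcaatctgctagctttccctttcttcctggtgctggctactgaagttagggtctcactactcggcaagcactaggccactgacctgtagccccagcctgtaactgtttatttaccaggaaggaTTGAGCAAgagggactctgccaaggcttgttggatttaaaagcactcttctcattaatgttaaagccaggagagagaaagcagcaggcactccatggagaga
Orm2, chr4:63362199-63362498, plus strand: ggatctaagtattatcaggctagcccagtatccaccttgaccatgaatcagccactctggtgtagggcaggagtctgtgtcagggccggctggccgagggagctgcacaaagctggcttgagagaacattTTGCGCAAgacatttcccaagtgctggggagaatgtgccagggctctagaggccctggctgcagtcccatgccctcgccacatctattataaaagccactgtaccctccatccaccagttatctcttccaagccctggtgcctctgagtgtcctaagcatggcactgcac
Itih4, chr14:30886226-30886525, plus strand: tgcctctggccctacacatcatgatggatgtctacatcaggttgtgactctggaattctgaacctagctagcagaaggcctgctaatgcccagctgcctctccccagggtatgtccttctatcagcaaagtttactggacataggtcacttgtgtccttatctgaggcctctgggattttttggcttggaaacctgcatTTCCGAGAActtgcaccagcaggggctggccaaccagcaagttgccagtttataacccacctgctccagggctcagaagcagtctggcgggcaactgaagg
The Saa1 and Saa2 windows were 95.99% identical over 299 aligned bases, and those of Orm2 and Orm3 were 89.15% identical over 295. On either strand, TTNNGCAA, a C/EBP motif, was found in 7 of the 8 windows (all but Itih4) and in 10.8% of 32851 mouse start-site windows of the same length. In Saa1 the match lay at -182 to -175 from the start, in Saa2 at -183 to -176, and in Orm2 at -120 to -113. Itih4 alone held TTCNNNGAA, a STAT motif found in 8.298% of all windows, at -51 to -43. No member window held the patterns searched for NF-kB (GGG and TTTCC, 2 bases apart, in 1.629% of all windows) or the glucocorticoid receptor (ACA and TGTTC, 3 bases apart, 0.9711%). Nor did any hold the HNF1 pattern (GTTAAT and ATT, 1 base apart, 0.3988%) or the direct repeats of AGNTCA that PXR can bind, 3 bases apart (0.07001%) or 4 bases apart (0.1248%). The C/EBP match in Orm2 reads on both strands. A match describes letters and not a bound site. Looser forms of these motifs were not searched, so a miss does not show that a site is absent.

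Levels can be set side by side between genes only per length. Divided by the length of the longest protein-coding GENCODE transcript, Hp stood highest at 17622 ± 922 normalised counts per kb, followed by Itih4 (5968 ± 972), Orm1 (2830.2 ± 321) and Saa4 (1207 ± 102). Next came Saa1 at 371 ± 126 and Saa2 at 93.9 ± 33.1, and Lcn2 (43.8 ± 7.14), Orm2 (39.3 ± 10.3) and Orm3 (17.0 ± 20.7) closed the order (SD, n = 4). The neighbours Lcn2 and Orm2, and Orm2 and Orm3, did not differ beyond their SDs. In WT atorvastatin Saa1, at 2854 ± 464 per kb, stood ahead of Saa4, at 1279 ± 335, the reverse of their order with vehicle. This reversal depends on the length chosen. The Saa1 transcript used has 609 bases, but the annotated exon length of the gene is 2478, whereas Saa4 has 2094 by both. Undivided, Saa1 stayed below Saa4 in WT atorvastatin, at 1738 against 2679 normalised counts. Exon lengths of Saa2 (2518) and Lcn2 (2623) also exceed the 652 and 915 bases used, so their places are uncertain too. Hp led in all 4 groups that had a value for it.

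Atorvastatin raised the inducible serum amyloid A genes of WT mice most. Saa1 and Saa2 were higher in every atorvastatin library than in any vehicle library, Orm2 and Itih4 likewise, and Saa4, the constitutive form, was not called. These 4 of the 9 measured members did not overlap between groups. They are among the 6 members listed for this comparison. Of all genes so listed, which were picked for their difference, 76.1% did not overlap. In the authors' deposited table the same 4 were called, all of them higher, against 5.47% of 13924 genes called higher and 9.57% called in either direction. Folds here are ratios of group means of normalised counts.

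In Saa1, WT vehicle libraries 1 to 4 read 301, 218, 263 and 122.5 normalised counts and the atorvastatin libraries 1621, 1958, 1393 and 1979. The lowest atorvastatin library lay far above the highest vehicle library. The means of 226 ± 76.9 and 1738 ± 282 (SD, n = 4) differed 7.68-fold (the authors' deposited table, adjusted p = 5.977e-38; edgeR, adjusted p = 0.000116). Saa2 read 87.5, 66.3, 55.3 and 35.9 with vehicle and 318, 528, 372 and 496 with atorvastatin. Again no vehicle library reached the lowest atorvastatin library. Saa2 rose 7.00-fold, with adjusted p = 2.765e-28 in the authors' deposited table and 0.000128 in edgeR, and the 95% intervals of the log2 differences overlapped, at 2.29 to 3.33 for Saa2 and 2.48 to 3.46 for Saa1.

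Saa1 and Saa2 transcripts are 94.39% identical over 606 aligned bases, so reads may be split between them or lost, and their separate levels are uncertain. The count of Saa1 was 3.73 ± 0.695 times that of Saa2 with vehicle, 4.14 ± 0.655 times with atorvastatin and 3.38 ± 1.13 times with PCN (SD, n = 4 libraries). The ratio with vehicle and with atorvastatin did not differ detectably (exact permutation test, two-sided, p = 0.4). Saa4 shares 65.59% of aligned bases with Saa1 and read 2717, 2680, 2454 and 2260 with vehicle. With atorvastatin it read 2227, 2329, 2438 and 3723, a single library rising above the vehicle range. Its means, 2528 ± 213 and 2679 ± 701, stood 1.06-fold apart, and it was absent from the list the authors kept at a threshold of 0.1 (exact permutation test, two-sided, p = 0.914 as a single value).

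**Figure D1:**
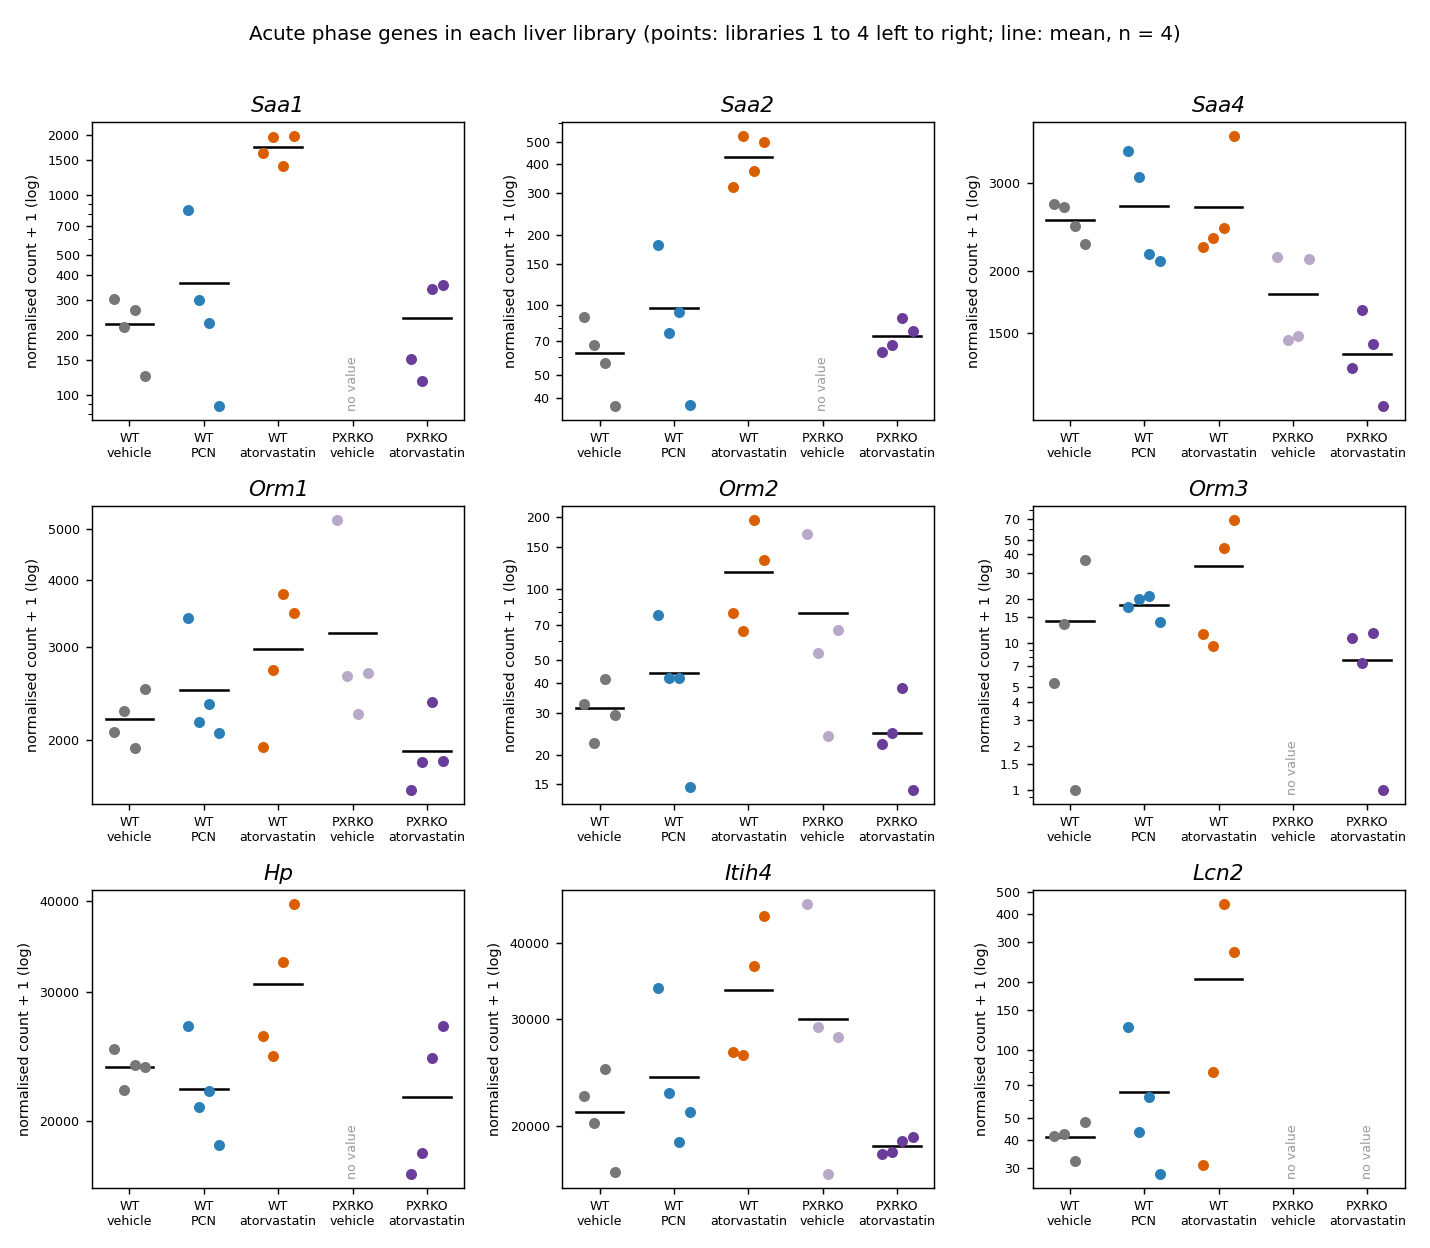
Normalised read count plus 1 (log axis, scaled separately for each gene) in every library, points running from library 1 to 4 within a group and lines marking means of 4. In WT atorvastatin Saa1 and Saa2, at 1393 to 1979 and 318 to 528, are separated from WT vehicle, WT PCN and PXRKO atorvastatin. They have no value in PXRKO vehicle, and pravastatin is not shown. Saa4 is lower in both PXRKO groups than in WT vehicle.

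Among the orosomucoids Orm2 alone was called with atorvastatin; differences between the 3 genes were not tested. Orm2 read 31.7, 21.3, 40.5 and 28.4 with vehicle and 78.1, 65.3, 193.5 and 130.5 with atorvastatin, without overlap. It rose 3.83-fold (30.5 ± 7.98 to 117 ± 58.4, SD, n = 4), with adjusted p = 7.43e-07 in the authors' deposited table and 0.00684 in edgeR. Orm1, whose transcript is 90.97% identical to that of Orm2 and far more abundant, read 1938, 2707, 3764 and 3473 with atorvastatin against 1930.5 to 2502 with vehicle. It was not in the authors' list, and its fold of 1.35 came with overlapping groups (exact permutation test, two-sided, p = 0.143). Orm3 stayed near the detection limit, with raw counts of 4, 25, 0 and 48 in the vehicle libraries and 15, 10, 48 and 70 with atorvastatin. Because of the identity of these transcripts, Orm2 counts may include Orm1 reads: the ratio of Orm2 to Orm1 counts was 0.0143 ± 0.00512 with vehicle and 0.0383 ± 0.0112 with atorvastatin (SD, n = 4 libraries).

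Of the abundant plasma proteins, Itih4 was called and Hp was not. Itih4 read 22427, 20209, 24864 and 16788 with vehicle and 26452, 26232, 36735 and 44382 with atorvastatin. The groups were separate but close, and Itih4 rose 1.59-fold (21072 ± 3431 to 33450 ± 8782, SD, n = 4; adjusted p = 0.003259 in the authors' deposited table). In edgeR on the listed genes its adjusted p was 0.0511, so that 3 of the 6 listed members passed. Of the 1769 listed genes 751 passed, which is 5.06% of 14848 genes if unlisted genes count as not passed. Hp read 22098 to 25119 with vehicle and 26123, 24536, 32950 and 39602 with atorvastatin, a 1.30-fold difference with adjusted p = 0.06637 in the authors' deposited table. Lcn2, which neutrophils and epithelial cells also make, read 40.4, 41.6, 31.3 and 47.1 with vehicle and 30.0, 79.0, 441 and 271 with atorvastatin. Its 5.12-fold difference of means rested on 2 libraries (adjusted p = 0.05723 in the authors' deposited table), and library 1 lay below every vehicle library. Without library 3 the fold was 3.16 and without library 1 it was 6.57, with adjusted p between 0.0109 and 0.195 in edgeR as single libraries were left out. In whole liver, a change in the number of cells of one type cannot be told apart from a change in RNA per cell.

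The members fell into different orders across the atorvastatin animals. Libraries 3 and 4 held the highest pair of values for 7 of the 9 members, Saa4, Orm1, Orm2, Orm3, Hp, Itih4 and Lcn2, while 20.1% of 2417 genes with values in that group had the same pair on top. For Saa1 and Saa2 the highest pair was libraries 2 and 4. Library 1 was lowest of its group in Saa2, Saa4, Orm1 and Lcn2, and library 3 was lowest in Saa1. Serpina3n, a further acute phase gene, read 4810, 5091, 7334 and 7557 in these libraries, and Socs3 was highest in library 4, at 269.8 against 108 to 122 in the others. Kupffer cell and neutrophil marker lists had no full set of values in this group, and their part in the differences between animals was not tested.

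**Figure D2:**
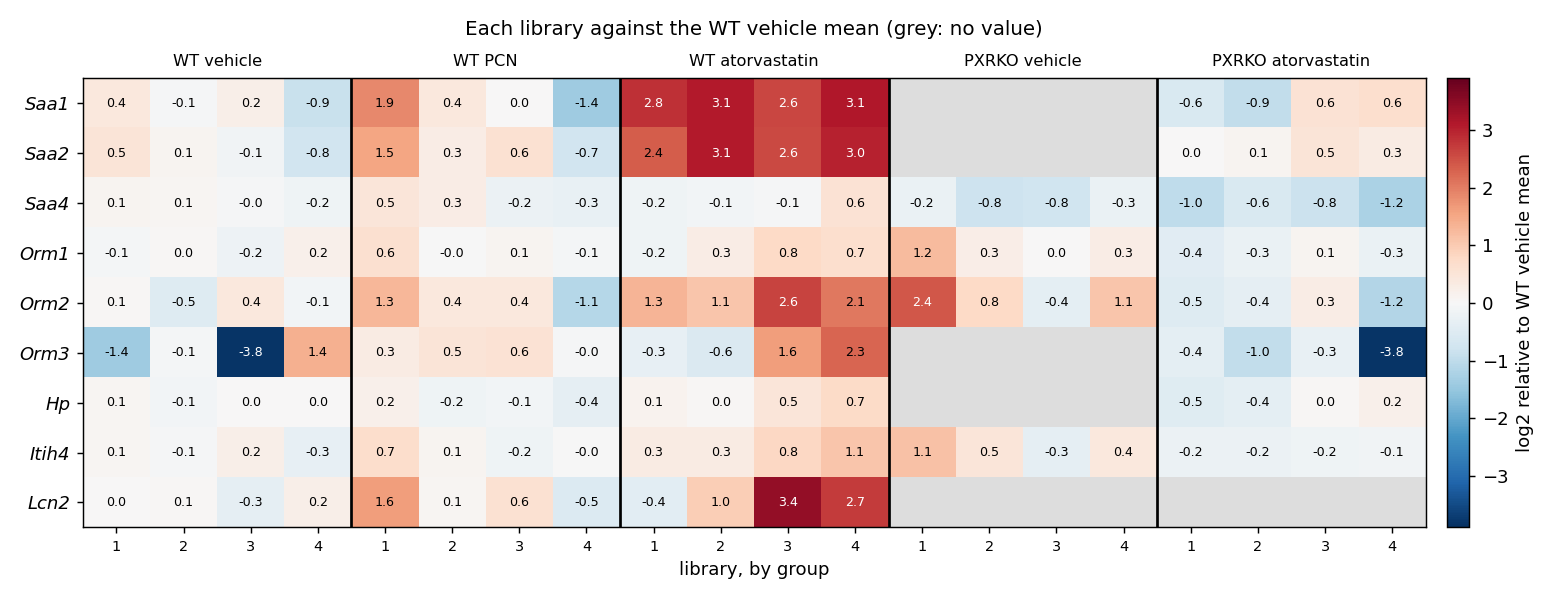
log2 of normalised count plus 1 in each library relative to the WT vehicle mean, members as rows and libraries as columns, red for higher, blue for lower and grey where there is no value. Saa1 and Saa2 are high in all 4 WT atorvastatin libraries, Lcn2 is high mainly in libraries 3 and 4, and PCN library 1 is high in 8 of 9 members.

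PCN, the direct PXR agonist, changed none of the 9 measured members past the threshold. The edgeR quasi-likelihood test called 0 of 9, against 3.55% of 12938 genes, with adjusted p from 0.405 to 0.852, and 0 of 9 had an unadjusted p under 0.05, the smallest being 0.117 for Lcn2. The authors' deposited table also called 0 of 9, against 5.57% of genes, and DESeq2 called 0. None of the 9 had separate groups, which 11.5% of genes had. Saa1 read 840.1, 298, 228 and 86.6 with PCN, straddling the vehicle range of 122.5 to 301. The mean of 363 ± 330 (SD, n = 4) was 1.61-fold that of vehicle, and the 95% interval of the log2 difference ran from -0.42 to 1.87. This interval holds no change, and it also holds a rise, but it excludes one as large as the log2 difference of 2.97 seen with atorvastatin. Saa2 read 180, 74.9, 92.6 and 36.2, with an interval of -0.24 to 1.57. Hp and Saa4 were bounded more tightly, at -0.34 to 0.15 and -0.23 to 0.43.

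A single PCN library decided much of these differences. PCN library 1 was highest of its group in 8 of 9 members and library 4 was lowest in 8, while over all 12938 genes library 1 was highest in 23.29% and library 4 lowest in 21.35%. Without library 1 the Saa1 fold went from 1.61 to 0.903, and those of Lcn2 and Orm2 fell to 1.08 and 1.04. Library 1 was also highest in 23 of 31 other acute phase genes and held the highest Socs3 of the group, 356 against 195, 97.1 and 70.1. The summed level of 11 Kupffer cell and macrophage markers was 3150.3 in library 1 and 3859, 1695 and 2180 in PCN libraries 2 to 4. With vehicle it ran from 2897 to 5151. Of 11 neutrophil markers 3 were listed, and their sum was 28.0 in PCN library 1 and 31.3, 10.6 and 21.8 in PCN libraries 2 to 4. With vehicle it ran from 20.3 to 57.1. No Kupffer cell, neutrophil, monocyte or lymphocyte marker was called with PCN or in any other comparison, but with PCN only 1 neutrophil, 1 monocyte and 1 lymphocyte marker passed the filter on low counts. Markers of other cell types were called, though few of each list. In each comparison named next, these were 1 of 6 stellate cell, 1 of 6 endothelial or 1 of 3 measured adipocyte markers. Of 7 hepatocyte markers, Tat was lower with PCN (edgeR) and Cyp2e1 was higher with atorvastatin in WT. Alb and Ttr were lower in PXRKO vehicle than in WT vehicle, and Ttr was lower in PXRKO under atorvastatin. The stellate cell marker Lrat was higher with PCN (1.60-fold, edgeR) and with atorvastatin in WT (adjusted p = 0.0387 in the authors' deposited table). In the authors' deposited tables the endothelial marker Kdr (1.30-fold) and the adipocyte marker Cfd were called higher in PXRKO vehicle than in WT vehicle. Counts of Cfd were low, at 2.81 ± 1.83 in WT vehicle and 13.2 ± 4.89 in PXRKO vehicle (4.70-fold by means, SD, n = 4). The endothelial marker Lyve1 (1.77-fold) was called higher in PXRKO under atorvastatin. Their part in the members' differences was not tested.

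Set side by side, atorvastatin exceeded PCN in Saa1 and Saa2. These 2 of the 9 members were called in edgeR against 2.36% of 2333 genes listed for all groups concerned. Genes enter that set only if a table had picked them for a difference involving WT atorvastatin. Saa1 and Saa2 were picked for being high there, so the calls and the share are not those of an unselected test. The log2 difference was 2.24 for Saa1 (95% interval 1.19 to 3.29, adjusted p = 0.0344) and 2.15 for Saa2 (1.38 to 2.91, adjusted p = 0.0124). All 4 atorvastatin libraries lay above all 4 PCN libraries in both genes. The Saa1 call was lost when any of 6 single libraries was left out (PCN 2 or 3, or atorvastatin 1, 2, 3 or 4), with adjusted p up to 0.102 in edgeR, whereas without PCN library 1 its log2 difference was 3.14. For Orm2 the difference was 1.43 (0.46 to 2.41, adjusted p = 0.124), for Itih4 0.47 (0.03 to 0.92) and for Saa4 -0.01 (-0.43 to 0.41). The doses differ, at 10 and 100 mg/kg, so the values stand side by side and rank no potency. The 2 comparisons with vehicle share the same vehicle libraries.

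Pravastatin, a hydrophilic statin given at the dose of atorvastatin, had no member in its tables. The least filtered of these held 929 genes with unadjusted p up to 0.06268, and 28 genes (0.191% of 14666) were called. A member missing from that list had either no test or a larger p, and its level with pravastatin is unknown. The atorvastatin and pravastatin groups could therefore not be compared in any member.

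**Figure D3:**
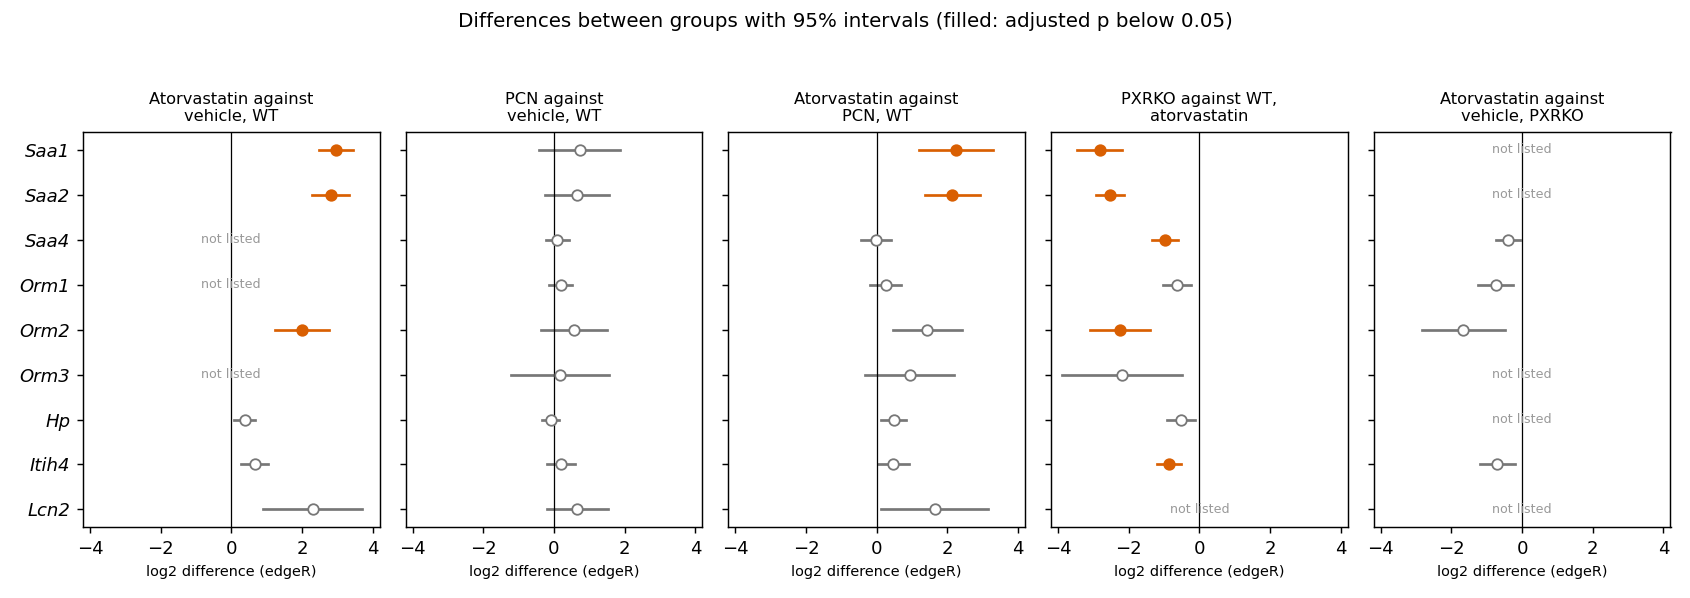
log2 differences between groups from edgeR (points) with 95% intervals (lines) for each member, filled where the adjusted p was below 0.05; "not listed" marks members that the comparison's table leaves out. Saa1, Saa2 and Orm2 are filled for atorvastatin against vehicle in WT, Saa1 and Saa2 for atorvastatin against PCN, nothing is filled for PCN, and 5 members are filled on the lower side for PXRKO against WT under atorvastatin.

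Under atorvastatin, PXRKO livers held less of every listed member than WT livers. The authors' deposited table called 8 of the 10 members, all lower, against 5.10% of 14692 genes called lower and 9.35% called in either direction. This table shares its 4 WT libraries with the atorvastatin and vehicle comparison. Saa1 read 150, 117, 338 and 355 in PXRKO atorvastatin, without overlap with WT atorvastatin and across the WT vehicle range. It was 7.24-fold lower in PXRKO (240.2 ± 124 against 1738 ± 282, SD, n = 4), with adjusted p = 1.377e-10 in the authors' deposited table and 0.000375 in edgeR. Saa2 read 61.8, 66.3, 86.8 and 76.6 and was 5.88-fold lower (adjusted p = 2.455e-33 in the authors' deposited table). Set beside WT vehicle across the tables, the PXRKO atorvastatin means were 1.06-fold for Saa1 and 1.19-fold for Saa2, with overlapping libraries (exact permutation test, two-sided, p = 1 and 0.429).

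The orosomucoids and the remaining members followed in the same direction. Orm2 read 21.1, 23.7, 37.2 and 13.2 in PXRKO atorvastatin and was 4.92-fold lower than in WT atorvastatin (adjusted p = 3.026e-07 in the authors' deposited table). Orm1 was 1.56-fold lower (1905 ± 322, adjusted p = 0.0121), Orm3 was 4.85-fold lower from low counts (adjusted p = 0.04219) and Hp was 1.43-fold lower (21603 ± 4867, adjusted p = 0.04751), all in the authors' deposited table. In Orm1, Orm3 and Hp the libraries of the groups overlapped, and edgeR on the listed genes gave adjusted p of 0.0619, 0.164 and 0.158. Itih4 was narrow in PXRKO atorvastatin, at 17999 to 19173, and 1.80-fold lower than in WT (adjusted p = 3.682e-06 in the authors' deposited table). edgeR thus called 5 of the 8 listed members, Saa1, Saa2, Saa4, Orm2 and Itih4. It called 949 of the 1374 listed genes, which is 6.46% of 14692 genes if unlisted genes count as not called. The 5 members are those whose libraries did not overlap (85.5% of the genes listed in that table did not overlap).

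Saa4 was lower in PXRKO than in WT also with vehicle, where Saa1 and Saa2 have no PXRKO values. It read 2134, 1452, 1479 and 2115 in PXRKO vehicle and 1275, 1670.5, 1428 and 1070 in PXRKO atorvastatin. All 8 lay below the 4 WT vehicle libraries (2260 to 2717). Of the genes listed between genotypes with vehicle, 76.9% had PXRKO vehicle and WT vehicle libraries that did not overlap. The PXRKO vehicle mean of 1795 ± 381 was 0.710 of WT vehicle, and Saa4 was the 1 member called between genotypes with vehicle (adjusted p = 0.02703 in the authors' deposited table, where 2.08% of 14776 genes were called). edgeR on the listed genes gave it an adjusted p of 0.164. It called 103 of the 437 listed genes, which is 0.676% of 15243 genes if unlisted genes count as not called. Under atorvastatin it was 1.97-fold lower in PXRKO than in WT (adjusted p = 3.102e-06 in the authors' deposited table).

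With vehicle, the PXRKO livers had values for Saa4, Orm1, Orm2 and Itih4 alone, so no effect of atorvastatin in PXRKO can be given for Saa1, Saa2, Orm3, Hp or Lcn2. Orm1 read 5197, 2641, 2237 and 2680 in PXRKO vehicle. Orm2 read 169, 52.5, 23.0 and 66.1, and Itih4 read 46411, 29125, 16665 and 28045. In Orm1, in Orm2 and in Itih4, 3 of the 4 libraries exceeded every WT vehicle library. These 3 genes have values here only because they were listed for a difference between the PXRKO groups. Libraries 1 and 4 were the highest pair in 3 of the 4 members with values and in 19.6% of 928 genes. Library 1 was the highest of the group in all 4 members. It was also highest in 6 of the 10 other acute phase genes with values there, among them Lrg1 at 12689 against 4633 to 8942. Only picked genes have values in this group, so no share over all genes can be set beside these counts. Library 1 held the lowest Socs3 of its group, at 108 against 185 to 355. Relative to WT vehicle the PXRKO vehicle means were 1.45-fold for Orm1, 2.55-fold for Orm2 and 1.43-fold for Itih4, and none was in the authors' list at adjusted p below 0.1. Without library 1 these folds were 1.15, 1.55 and 1.17.

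In PXRKO mice atorvastatin called 0 of these 4 members, where 0.105% of 11447 genes were called in the authors' deposited table. All 4 means were lower with atorvastatin: Orm2 by 3.27-fold, Orm1 by 1.67-fold, Itih4 by 1.62-fold and Saa4 by 1.32-fold, with adjusted p of 0.3608, 0.8298, 0.8933 and 0.8414 in the authors' deposited table. edgeR on the listed genes called 0 members and 0.0% of genes, and the unadjusted p of the 4 members lay between 0.00706 and 0.0274. The table lists only genes with an unadjusted p up to 0.03059, so every member in it had to differ. Without PXRKO vehicle library 1 the folds of PXRKO atorvastatin over vehicle were 0.504 for Orm2, 0.756 for Orm1 and 0.754 for Itih4, against 0.306, 0.597 and 0.617 with it.

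In edgeR the effect of atorvastatin was called different between genotypes in 3 of the 4 members with values in all 4 groups. These 3 were picked beforehand for a difference that enters the test, so their calls are not those of an unselected test. The interaction, the log2 effect in PXRKO minus that in WT, was -3.66 for Orm2 (95% interval -5.15 to -2.18, adjusted p = 0.0038), -1.36 for Itih4 (-2.03 to -0.69, adjusted p = 0.00989) and -1.18 for Orm1 (-1.85 to -0.50, adjusted p = 0.0238) in edgeR. Saa4 gave -0.48 (-0.98 to 0.02, adjusted p = 0.238). Among the 357 genes listed for all 4 groups 11.5% were called, and genes enter that set because a table had already picked them. Orm2, Itih4 and Orm1 have PXRKO vehicle values only because they were listed for a difference between the PXRKO groups. A part of their interaction was thus picked before the test. Orm1 and Saa4 have WT atorvastatin values only because they were listed for a difference between genotypes under atorvastatin. Without PXRKO vehicle library 1 the interaction was -2.92 for Orm2, -1.07 for Itih4 and -0.84 for Orm1, and these remained past the threshold. The Orm1 call was lost without WT atorvastatin library 3 (-1.04, adjusted p = 0.0556).

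**Figure D4:**
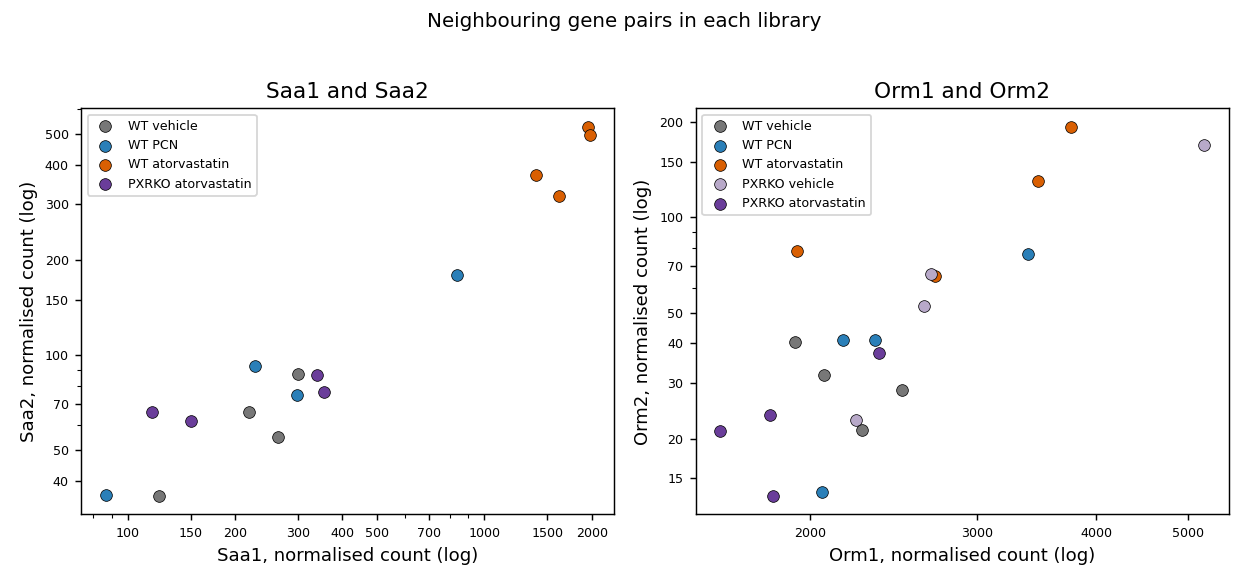
Normalised counts of neighbouring, near-identical genes in each library (log axes, 1 point a library, colours for groups), Saa2 against Saa1 on the left and Orm2 against Orm1 on the right. The 4 WT atorvastatin libraries stand apart for Saa1 and Saa2, which have no PXRKO vehicle values. For Orm1 and Orm2 they mix with PXRKO vehicle libraries.

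Few other acute phase genes were called. Of 31 measured genes on a list of 35 positive acute phase proteins, atorvastatin in WT raised 3, lowered 1 and left 27 not passed. In the authors' deposited table, which gave these calls, 5.47% of 13924 genes were called higher and 9.57% in either direction. Only 9 of the 31 had values in WT atorvastatin, and the others count as not passed because they were not listed. Raised were Cfb, complement factor B (57.4 ± 7.31 to 84.2 ± 10.2, 1.47-fold, adjusted p = 0.01779), C4b, complement component 4 (1.41-fold, adjusted p = 0.03643), and Hpx, the haem-binding hemopexin (1.38-fold, adjusted p = 0.03938), each in the authors' deposited table. Serpina3k, a serine protease inhibitor gene, fell 1.35-fold with atorvastatin (adjusted p = 0.02274 in the authors' deposited table), and under atorvastatin it was 1.78-fold higher in PXRKO than in WT. In that genotype comparison 3 of the list were lower, Steap4, a metalloreductase (1.58-fold), the complement component C3 (1.34-fold) and Hpx (1.47-fold). With PCN 0 of the 31 passed in edgeR, where 3.55% of all genes did. The list's median log2 difference was -0.03 beside -0.01 over all genes.

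Of 9 measured genes of negative acute phase proteins, which fall in inflammation, atorvastatin in WT lowered 0 and raised 1. In the authors' deposited table, which gave these calls, 9.57% of all genes were called. Serpina6, corticosteroid-binding globulin, went from 1329 ± 251 to 3313 ± 634 (2.49-fold, adjusted p = 2.555e-14 in the authors' deposited table). Serpina6 also rose with PCN (1.81-fold, adjusted p = 0.0135, edgeR) and was 3.09-fold lower in PXRKO than in WT under atorvastatin (adjusted p = 8.622e-13 in the authors' deposited table). In that comparison Trf (transferrin) and Ttr (transthyretin) were lower as well, by 1.38-fold and 1.20-fold. With vehicle Ttr and Alb (albumin) were lower in PXRKO, by 1.30-fold and 1.45-fold.

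Among 29 genes of cytokine signalling, 26 were measured, and atorvastatin in WT raised 2 and lowered 1 in the authors' deposited table. Over all genes 9.57% were called there. Socs3, the feedback inhibitor of STAT3 signalling, rose 1.89-fold (81.8 ± 13.9 to 155 ± 77.0, adjusted p = 0.01822), Nfkbiz, an inducible NF-kB cofactor, rose 1.43-fold (adjusted p = 0.03934), and Nfkbia, the NF-kB inhibitor, fell 1.31-fold (adjusted p = 0.0008585), each in the authors' deposited table. Pravastatin had the same 3 calls in the authors' deposited table, with folds of 2.04 and 1.38 up and 1.48 down, while no member was listed for it. PCN raised Nfkbiz and lowered Nfkbia 1.67-fold (edgeR, adjusted p = 0.0437 and 0.00206), again with no member called. In PXRKO vehicle Socs3 was 2.85-fold that of WT vehicle and Nfkbia 1.34-fold lower. Under atorvastatin Il6ra, the interleukin 6 receptor subunit, was 1.79-fold lower in PXRKO than in WT (adjusted p = 3.288e-06 in the authors' deposited table), Cebpb was 1.51-fold lower, Nfkbia was 1.26-fold lower and Nfkb1 was 1.22-fold higher.

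Of 12 measured glucocorticoid-induced genes, atorvastatin in WT lowered 4, raised 0 and left 8 not passed in the authors' deposited table. Over all genes 9.57% were called there. The 4 lowered were Tsc22d3, a glucocorticoid-induced leucine zipper gene (2.03-fold, adjusted p = 9.423e-15), the cell cycle inhibitor gene Cdkn1a (3.29-fold), Ddit4, an inhibitor of mTOR signalling (2.13-fold), and the kinase gene Sgk1 (1.35-fold). PCN lowered 4, raised 0 and left 8 not passed in edgeR: Tsc22d3 (3.20-fold, adjusted p = 3.11e-05), Tat (tyrosine aminotransferase), Ddit4 and Cdkn1a. Under atorvastatin 5 were lower in PXRKO than in WT and 1 was higher in the authors' deposited table, led by the clock gene Per1 (1.84-fold lower), Cdkn1a (4.16-fold higher) and Dusp1, a MAP kinase phosphatase gene (1.97-fold lower). Pravastatin raised 1, Zbtb16, a zinc finger gene (1.71-fold, adjusted p = 0.01969 in the authors' deposited table), and lowered 0. These lists were read as counts, and no test of a list was made. Over all genes edgeR called 3.55% with PCN. The authors' deposited tables called 0.191% with pravastatin, 9.35% between genotypes under atorvastatin and 2.08% between genotypes with vehicle.

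The genes whose levels ran most like Saa1 were found by Pearson correlation of log2(normalised count + 1), as a description. Over the 8 WT vehicle and PCN libraries and 9700 genes with a mean of at least 50, they included Plcxd2 (r = 0.970), Tbk1 (0.951), Znrf3 (0.947) and Acox3 (0.941), and Saa2 had r = 0.936. Saa1 was farthest from its median in PCN libraries 1 and 4. Over the other 6 libraries r was 0.94 for Plcxd2, 0.854 for Acox3 and 0.793 for Saa2, while Orm1 went from 0.592 to -0.789 and Lcn2 from 0.764 to -0.341. With the 4 atorvastatin libraries added, which lie apart in Saa1, and 2045 genes listed for all 3 groups, the likest were Slc10a2 (r = 0.949), Tmem176a (0.850), Zc3h12a (0.850), Atp11b (0.830) and Alg11 (0.821). Slc10a2, the apical bile acid transporter gene, averaged 195 with vehicle, 224 with PCN and 291 with atorvastatin. Saa2 had r = 0.982 and Orm2 had r = 0.885 over these 12 libraries, and Saa4 had 0.378.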

How the data were processed

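Liver total RNA libraries of 24 mice in 6 groups were deposited as 15 tables of 1 workbook, each holding a pair of groups, and 11 of the tables were used. The other 4 added no member or repeated genes of another table. HTSeq, DESeq2 and GRCm38 are what the submitters' processing notes name, with no versions. Which aligner and annotation release they used is not given in the sources used here. Each deposited table gives whole raw counts by gene. Its baseMean column, a signal the authors deposited, averages those counts after division by size factors. Deposited too are the authors' log2 fold changes with a p-value and an adjusted p-value each; their log2 value for Saa1 with atorvastatin is 2.39 where the ratio of means gives 2.94, so folds in the text come from the counts.

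Size factors were recovered from baseMean by least squares, and libraries found in several tables linked these to 1 scale; their ratios varied by at most 0.207% over libraries. The 2 routes to PXRKO atorvastatin differed by 0.216%. A level compared between tables thus joins values that were normalised apart. Columns were tied to groups by table names and sample numbers (88 count columns mapped, 0 unused). Genes were joined by symbol and position, since the identifier column was out of register in some tables. Deposited starts are 0-based, so 1 was added.

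For PCN against vehicle, edgeR 4.0.16 (TMM, filterByExpr, quasi-likelihood F test, Benjamini-Hochberg) was run on 12938 genes at adjusted p of 0.05. Elsewhere the authors' calls stand first, followed by edgeR run on whichever genes are listed; its dispersion trend and its prior of 5.816 degrees of freedom were learned from vehicle and PCN, with the adjustment made over as many genes as the deposited adjusted p-values imply. The interaction and the comparison of atorvastatin with PCN used that fit where every group had values, which are selected genes. Exact permutation tests compared mean log2(normalised count + 1), two-sided, 4 against 4 libraries, with a smallest possible p of 0.0286. Intervals are at 95%. The fits were tested on simulated data. Transcript lengths and identities are from GENCODE M21 (GRCm38) and start-site windows from RefSeq (GRCm38.p6).

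Members were fixed by symbol, and called genes of a list are named by smallest adjusted p, up to 3 a comparison. Lrg1, Serpina3n, Hpx, Sgk1, Cdkn1a with PCN, and Nfkbia in PXRKO under atorvastatin fall outside this rule and were named after their values were seen. Some genes that the rule names are not reported here. The members and lists were chosen with earlier results of these data known. Alternatives were TMM against other scalings, no filter, DESeq2 1.42.0, a threshold of 0.1, a log2 difference with a pseudocount of 1, each table's own scale and leaving out each library. Software: matplotlib 3.10.9, scipy 1.17.1, R 4.3.3, numpy 2.4.6, Python 3.11.15 and pandas 2.3.3.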

Additional observations from a re-analysis of the deposited data

Results flagged for a closer look

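Among 39 sets of 4 libraries (1 member in 1 group each), 2 held a library far from the other 3, where chance would give about 1 in 20. In WT atorvastatin, Saa4 library 4 read 3723, and its gap to the next library was 0.859 of the range of the group. In PXRKO vehicle, Orm1 library 1 read 5197, with a gap of 0.85 of the range. The same PXRKO library was highest in Saa4, Orm2 and Itih4.

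In 3 members edgeR called the effect of atorvastatin different between WT and PXRKO. On the log2 scale the difference, PXRKO minus WT, was -3.66 in Orm2, -1.36 in Itih4 and -1.18 in Orm1. Among the 357 genes that could be tested 11.5% were called. The 3 members have PXRKO vehicle values only because they were listed for a difference between the PXRKO groups. A part of the interaction was thus picked before the test, so its calls are not those of an unselected test. The PXRKO animals formed an experiment of their own, which these differences cannot be told apart from.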

How the results depend on the processing

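With PCN, 0 members were called under every scaling, filter, tool and left-out library tried. For atorvastatin in WT the authors' 4 calls became 6 at a threshold of 0.1 and 3 in edgeR, with 3 to 5 as single libraries were left out. For PXRKO against WT under atorvastatin the 8 calls became 5 in edgeR on the listed genes, with 5 to 6 as libraries were left out. For PXRKO against WT with vehicle the 1 call became 0 in edgeR, and 0 with any library left out. For atorvastatin against PCN the 2 calls became 1 to 2 as libraries were left out, and DESeq2 kept the count at 2. The interaction had 3 calls in edgeR and in DESeq2, and 2 to 3 as libraries were left out. The causes of these changes were not tested. No called fold changed direction, and all 415 recomputed folds of members moved by less than the spread between libraries. Ranking by Spearman kept 3 of the 10 genes most like Saa1 among the likest 5. A threshold of 0.1 for PXRKO against WT under atorvastatin was not run, since the table used there stops at 0.05. The comparison of atorvastatin with pravastatin, edgeR and left-out libraries for pravastatin and its animal-number term were not run, since no member is listed for pravastatin. No paired analysis was possible because the labels give the groups no shared replicate numbers. The animal numbers of each WT group fall into a low and a high run, which the labels do not explain. Columns of the PCN, atorvastatin and PXRKO groups are tied to a group and not to an animal, so a difference between these runs was not tested. Depth limits Orm3, with raw counts of 0 to 70, and tables that hold only selected genes leave members without values in PXRKO vehicle and pravastatin.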
